A study of Homo sapiens with 22 samples.

Results

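The 8 genes described here encode kinases and scaffolds of the pathway from RAF to ERK and RSK. They are ARAF and BRAF, the scaffolds KSR1 and SHOC2, the kinases MAP2K1 and MAP2K2 (MEK1 and MEK2), MAPK3 (ERK1) and RPS6KA1 (RSK1). They were taken by symbol from a table of 58735 genes, each symbol matched 1 row, and all 8 had enough counts to be tested. Read counts came from 22 xenograft tumours of H2110, an established human lung adenocarcinoma line labelled WT, so the model is a single cell line. The tumours were dosed by mouth for 3 days once they measured about 300 mm3: 6 received Vehicle, and 4 each received RMC-7977 at 10 mg/kg, RMC-4550 at 30 mg/kg, Trametinib at 0.3 mg/kg or Cobimetinib at 3 mg/kg. RMC-7977 inhibits active RAS, RMC-4550 inhibits the phosphatase SHP2, and both trametinib and cobimetinib inhibit the MEK kinases. The series is titled as a study of the GTPase RIT1 in this cancer. Each drug was given at 1 dose, so a difference between drugs holds for these doses only. The labels number the tumours but do not say that each came from its own animal, so the p-values speak only to spread between samples, part or all of which may be technical.

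In this pathway a RAS protein loaded with GTP recruits RAF kinases to the membrane, RAF phosphorylates MEK, and MEK phosphorylates ERK. SHOC2 belongs to a phosphatase complex that removes an inhibitory phosphate from RAF, and KSR1 holds RAF and MEK together. Active ERK phosphorylates kinases such as RSK as well as transcription factors, and it induces its own inhibitors, among them DUSP6 and SPRY4. RAF, MEK and ERK are regulated mostly by phosphorylation and binding, which RNA counts do not measure.

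In the coordinates of the table (hg38) the RAF genes are ARAF (ENSG00000078061) at chrX:47561100-47571920 and BRAF (ENSG00000157764) at chr7:140719327-140924928 on the minus strand. The scaffold genes are KSR1 (ENSG00000141068) at chr17:27456470-27626438 and SHOC2 (ENSG00000108061) at chr10:110919547-111013667. The MEK genes are MAP2K1 (ENSG00000169032) at chr15:66386817-66492312 and MAP2K2 (ENSG00000126934) at chr19:4090321-4124129 on the minus strand. MAPK3 (ENSG00000102882) lies at chr16:30114105-30123506 on the minus strand and RPS6KA1 (ENSG00000117676) at chr1:26529761-26575030.

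None of the 8 genes passed the test against Vehicle under any drug. The test was edgeR's quasi-likelihood F-test with Benjamini-Hochberg adjustment over 17652 genes and a threshold of 0.05. The share of all tested genes called was 0.748% for RMC-7977, 0.0283% for RMC-4550 and 0% for each of the MEK inhibitors, so a count of 0 of 8 is near the background. At an unadjusted p under 0.05 the members counted 2 of 8 under RMC-7977 (KSR1 and MAPK3), 0 under RMC-4550, 1 under trametinib (KSR1) and 0 under cobimetinib. The corresponding shares of all genes were 10.3%, 4.24%, 18.8% and 3.3%. The groups did not overlap for 1 of 8 members under RMC-7977 (MAPK3) and 0 of 8 for each of the others, where 4.12% of all genes (RMC-7977), 1.42% (RMC-4550), 1.17% (trametinib) and 1.48% (cobimetinib) did so. With DESeq2 the counts at an adjusted p under 0.05 were 1 (MAPK3), 0, 0 and 0, where it called 3.44%, 0.178%, 1.96% and 0.00252% of all genes. The median log2 fold change of the 8 genes was 0.19 for RMC-7977, −0.062 for RMC-4550, −0.092 for trametinib and 0.045 for cobimetinib. Over all genes tested it was −0.0056, −0.0050, −0.0052 and −0.0064.

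The intervals give the range of change that the spread between tumours allowed. The 95% interval of the log2 fold change lay wholly between −1 and 1 for 6 of 8 genes with RMC-7977, 8 with RMC-4550, 7 with trametinib and 8 with cobimetinib. Among all genes tested this held for 53.4%, 55.2%, 46.2% and 59.3%. The exceptions were KSR1 under RMC-7977 and trametinib, and MAPK3 under RMC-7977. Of the genes that ERK activity induces, DUSP6, ETV4, ETV5 and SPRY4 all fell under RMC-7977, DUSP6 fell under RMC-4550, and none of the 4 passed the test under trametinib or cobimetinib, where their median log2 fold changes were −1.99 and −0.49 and 3 and 1 of them had an unadjusted p under 0.05 by edgeR. DESeq2 called 4, 3, 3 and 0 of them under RMC-7977, RMC-4550, trametinib and cobimetinib, all lower. DUSP6, a phosphatase that inactivates ERK, averaged 18.5 ± 6.59 CPM (SD, n = 6) under Vehicle and 1.42 ± 0.309 (SD, n = 4) under RMC-7977. CPM, the count scaled to a common library size, used the trimmed mean of M values (TMM).

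**Figure D1:**
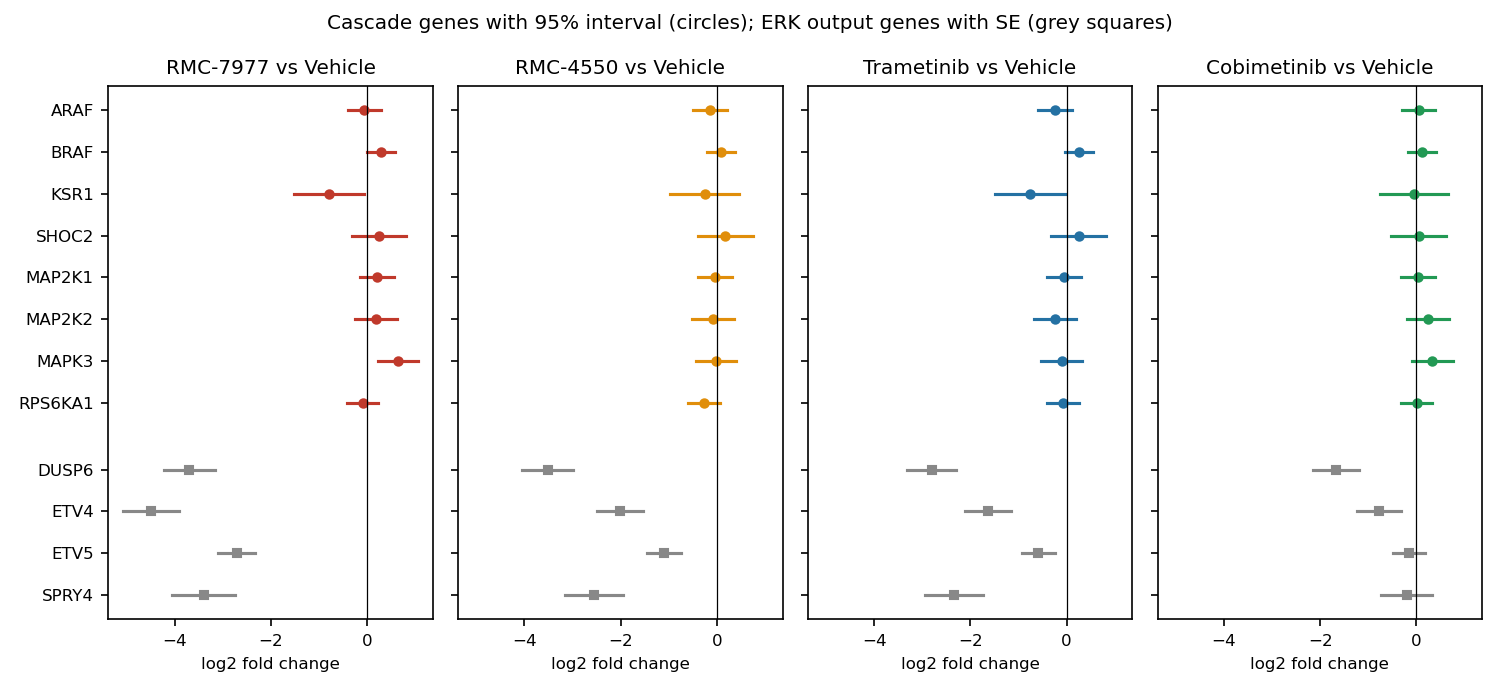
Log2 fold change against Vehicle (horizontal axis) of the 8 cascade genes (circles, with the 95% interval as a line) and of 4 genes induced by ERK (grey squares, with the SE as a line), 1 panel per drug. The cascade genes lie between −0.80 and 0.64, with KSR1 the lowest and MAPK3 the highest under RMC-7977.

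In bulk tumours, fewer cells of a type cannot be told apart from less RNA per cell. Total counts ranged from 7761987 to 17265754 per tumour. The markers of epithelial tumour cells (EPCAM, KRT7, KRT8, KRT18, CDH1, NKX2-1 and NAPSA) summed to 2551 to 4830 CPM over the tumours, although the lung lineage genes NKX2-1 and NAPSA had medians of only 2.88 and 1.14 CPM. The tumours were xenografts of a human line, and reads were counted on human genes (hg38). The non-tumour markers below therefore cannot be read as the content of host cells. The 6 myeloid markers summed to 6.20 to 26.8 CPM, with CD68 and LYZ at a median of 0, and the 4 endothelial markers to 8.87 to 115 CPM. The 4 fibroblast markers summed to 20.7 to 305 CPM, with COL1A1 at a median of 179 CPM. COL1A2, DCN and PDGFRB had medians of 0, 0 and 0.0653 CPM but reached 10.2, 13.1 and 2.88 CPM. The 3 muscle markers (DES, ACTA1 and CKM) summed to 0.274 to 28.0 CPM. On trametinib the endothelial and muscle sums reached 115 and 28.0 CPM, and in the other groups at most 50.2 and 1.47 CPM. Of the blood markers HBB and HBA1, the summed level was at most 0.155 CPM. Under Vehicle the epithelial sum was 4007 to 4830 CPM, above every tumour on RMC-4550 (2551 to 3781), trametinib (3164 to 4001) and cobimetinib (2828 to 3474), while RMC-7977 (2908 to 4232) overlapped Vehicle. The myeloid sum under RMC-7977 (6.20 to 10.3 CPM) lay below that under Vehicle (11.5 to 26.8 CPM). The part of these markers in the results was not tested. Some libraries stood apart: in Trametinib replicate 4, ribosomal protein genes took 25.0% of counts, and it correlated with the other libraries at a median of 0.751. This library, RMC-7977 replicate 3, Vehicle replicate 1 and RMC-4550 replicate 1 are called the 4 libraries apart, and calls that change without them are given both ways. They had the 4 lowest median correlations, the last 3 at 0.944, 0.933 and 0.936. Trametinib replicates 1 and 2 were kept. Their GC rank correlations (described below) were −0.484 and −0.413, near the −0.424 of RMC-7977 replicate 3.

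ARAF and BRAF encode 2 of the 3 RAF kinases. ARAF stood at 50.7 ± 8.06 CPM (SD, n = 6) under Vehicle, and its group means under the drugs ran from 42.9 (trametinib) to 52.4 (cobimetinib). The lowest, median and highest Vehicle tumours were at 36.2, 53.2 and 60.0 CPM. RMC-7977 tumours had 49.3, 49.3, 38.9 and 57.4 CPM, and those on trametinib 36.2, 41.8, 50.1 and 43.4 CPM. All 4 drug groups overlapped Vehicle. The log2 fold changes of ARAF were −0.058 ± 0.17 (SE) with RMC-7977, −0.14 ± 0.17 with RMC-4550, −0.24 ± 0.17 with trametinib and 0.045 ± 0.17 with cobimetinib, with edgeR quasi-likelihood adjusted p of 0.974, 0.986, 0.423 and 1.

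BRAF, the RAF kinase most often mutated in cancer, was less variable than any other member, with a biological coefficient of variation of 17.0%. Under Vehicle its lowest, median and highest values were 36.4, 39.7 and 57.7 CPM, the last in replicate 1. Values under RMC-7977 were 57.1, 49.2, 51.3 and 51.7 CPM, and those on trametinib 51.8, 57.6, 52.1 and 42.2 CPM. All 4 RMC-7977 tumours were above 5 of the 6 Vehicle tumours and below the remaining one, so the groups overlapped. The log2 fold change of BRAF was 0.29 ± 0.14 (SE) under RMC-7977 (edgeR quasi-likelihood adjusted p = 0.488) and 0.26 ± 0.14 under trametinib (adjusted p = 0.328). Without the 4 libraries apart it was 0.39 ± 0.11 (adjusted p = 0.0349) and 0.42 ± 0.11 (adjusted p = 0.0177), past the threshold in both, in a fit that called 6.38% and 15.1% of all genes. With the GC correction described below added, neither was called (0.31 ± 0.10, adjusted p = 0.0642, and 0.15 ± 0.10, adjusted p = 0.406). With the replicate number as a block, which leaves out Vehicle replicates 5 to 7, BRAF had 0.17 ± 0.17 and 0.14 ± 0.17. RMC-4550 and cobimetinib gave 0.089 ± 0.14 and 0.11 ± 0.14, and 0.18 ± 0.11 and 0.21 ± 0.10 without the 4 libraries apart, none of them called. A gene on the opposite strand, NDUFB2, overlaps BRAF over 3464 bases and had 142% of its mean count, and the strand setting of the counting is not given in the sources used here, so reads of the pair may have been split.

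KSR1 had the most negative log2 fold change of the 8 genes under both RMC-7977 and trametinib, and neither was called. The Vehicle tumours had 16.9 (replicate 1), 39.0, 56.7, 61.2, 62.2 and 59.4 CPM, a mean of 49.2 ± 18.0 (SD, n = 6). The tumours on RMC-7977 had 29.3, 34.5, 18.9 and 30.6 CPM, a mean of 28.3 ± 6.66 (SD, n = 4). All 4 lay below 5 of the 6 Vehicle tumours and above replicate 1 alone. The tumours on trametinib had 27.6, 32.4, 44.1 and 12.2 CPM, overlapping Vehicle, with the lowest of all 22 values in replicate 4. The tumours on RMC-4550 had 22.9, 55.0, 34.1 and 53.2 CPM, and those on cobimetinib 60.7, 57.1, 36.3 and 37.6 CPM. These last 2 groups spread over most of the Vehicle range.

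The log2 fold change of KSR1 was −0.80 ± 0.35 (SE, 95% interval −1.53 to −0.074) under RMC-7977, with an adjusted p of 0.403 by edgeR's quasi-likelihood test. Under trametinib it was −0.76 ± 0.35 (95% interval −1.48 to −0.031, adjusted p = 0.251). RMC-4550 gave −0.25 ± 0.34 and cobimetinib −0.040 ± 0.34 (−0.22 ± 0.19 without the 4 libraries apart). The estimates for RMC-7977 and trametinib rested on a wide spread, with a biological coefficient of variation of 37.0%. Without the 4 libraries apart, KSR1 passed the threshold under RMC-7977 (−0.84 ± 0.22, adjusted p = 0.0245) and trametinib (−0.71 ± 0.21, adjusted p = 0.0331). In that fit 6.38% and 15.1% of all genes were called, and 3 of 8 members under each drug. With the GC correction described below added, KSR1 stayed past the threshold under RMC-7977 (−0.76 ± 0.19, adjusted p = 0.0165) but not under trametinib (−0.48 ± 0.18, adjusted p = 0.139). With the replicate number as a block, which leaves out Vehicle replicates 5 to 7, the values were −0.30 ± 0.45 and −0.31 ± 0.43, and neither was called.

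**Figure D2:**
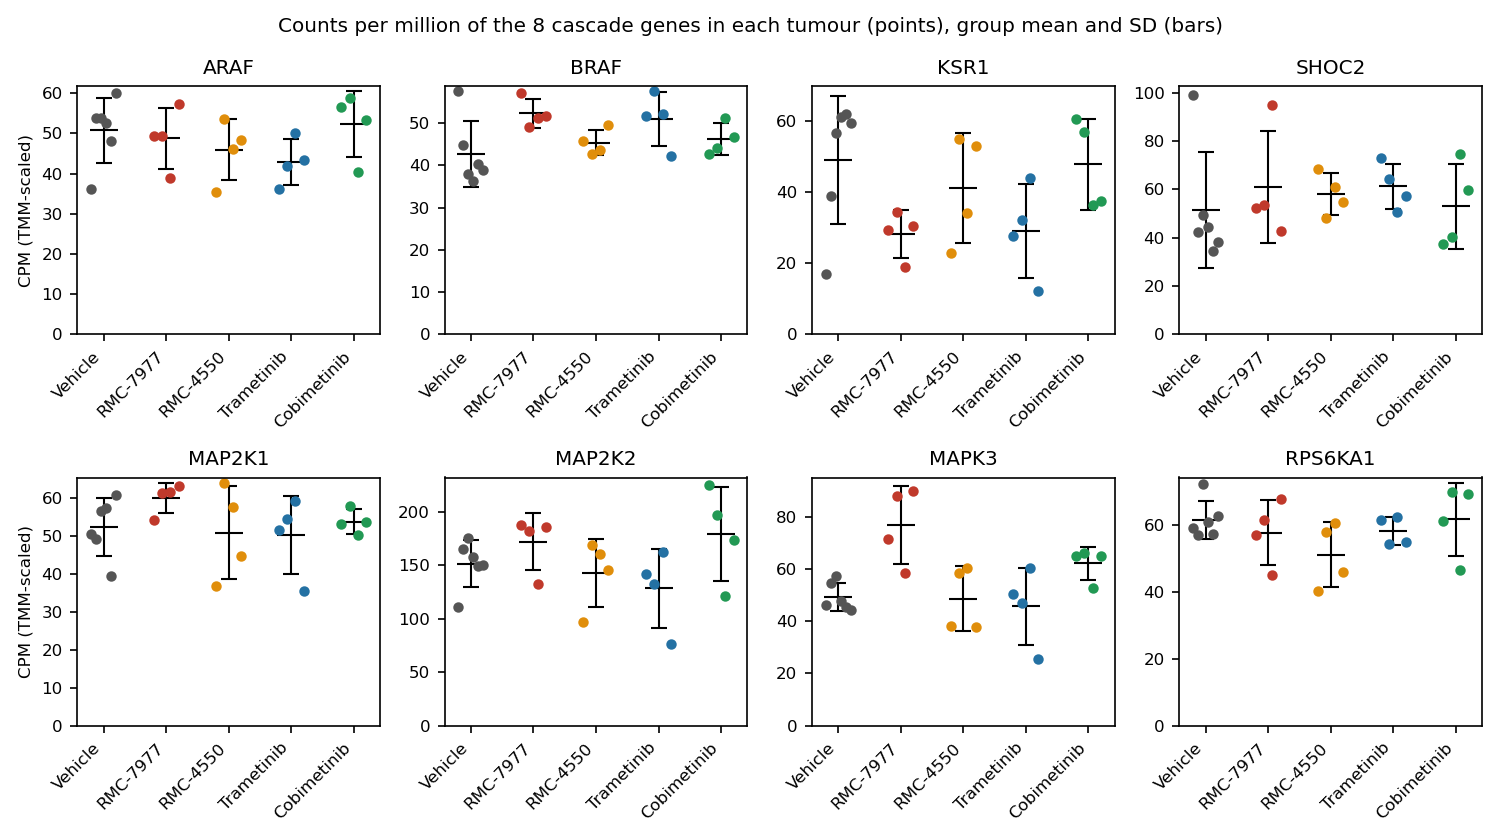
CPM (vertical axis, TMM-scaled, from 0) of each of the 8 genes in every tumour, with the group mean and SD as black bars. The RMC-7977 tumours lie above all Vehicle tumours for MAPK3 (58.3 to 89.9 against 44.2 to 57.3 CPM), and KSR1 in Vehicle replicate 1 (16.9 CPM) sits far below the rest of its group.

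The 250 bases before the RefSeq start of KSR1 are shown because KSR1 and MAPK3 were the 2 members with the smallest p-values against Vehicle. They lie at chr17:27456198-27456447 on the plus strand of GRCh38.p14 and are 80.8% G and C. The capitals mark the 3 matches to the GC box GGGCGG, read on both strands.
KSR1: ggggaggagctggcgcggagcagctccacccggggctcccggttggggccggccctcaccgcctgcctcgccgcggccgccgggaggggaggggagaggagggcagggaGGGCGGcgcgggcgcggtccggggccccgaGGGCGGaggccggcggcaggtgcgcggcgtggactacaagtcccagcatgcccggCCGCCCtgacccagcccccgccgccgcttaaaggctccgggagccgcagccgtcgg
GGGCGG occurred in 42.6% of the 35116 RefSeq windows of this length, whose median GC content was 58%. The ETS core CGGAAG, searched on both strands because several ETS factors are ERK substrates, had no match here and matched in 16.5% of windows.

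SHOC2 did not pass the test under any drug in the fit of all tumours, and its highest values lay in single libraries of Vehicle and RMC-7977. Its lowest, median and highest values under Vehicle were 34.6, 43.4 and 99.2 CPM, the last in replicate 1, with the other 5 tumours at no more than 49.5 CPM. RMC-7977 tumours had 52.1, 53.7, 94.9 and 42.9 CPM, and those on trametinib 72.8, 64.2, 50.8 and 57.1 CPM. With replicate 1 aside, all 4 trametinib tumours were above all Vehicle tumours, and with it the groups overlapped. The log2 fold change was 0.25 ± 0.27 (SE) under trametinib (edgeR quasi-likelihood adjusted p = 0.621) and 0.56 ± 0.18 (adjusted p = 0.0436) without the 4 libraries apart, a fit that called 15.1% of all genes. That call was lost with the GC correction described below added (0.22 ± 0.14, adjusted p = 0.384), and the blocked fit, without Vehicle replicates 5 to 7, gave 0.020 ± 0.31. Under RMC-7977 it was 0.24 ± 0.27 (adjusted p = 0.874), and −0.051 ± 0.28 without RMC-7977 replicate 3. RMC-4550 and cobimetinib gave 0.18 ± 0.27 and 0.046 ± 0.28, and 0.37 ± 0.18 and 0.33 ± 0.17 without the 4 libraries apart, neither called.

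MAP2K1 and MAP2K2 encode MEK1 and MEK2, the targets of trametinib and cobimetinib, and neither was called under any drug. MAP2K1 averaged 52.2 ± 7.69 CPM (SD, n = 6) under Vehicle, with a lowest, median and highest value of 39.3, 53.4 and 60.7 CPM. Under RMC-7977 the 4 tumours had 54.1, 61.1, 61.4 and 62.9 CPM. Of these, 3 of 4 were above all Vehicle tumours, by a small margin. The log2 fold changes of MAP2K1 were 0.20 ± 0.17 (SE) with RMC-7977, −0.042 ± 0.17 with RMC-4550, −0.057 ± 0.17 with trametinib and 0.041 ± 0.17 with cobimetinib, with edgeR quasi-likelihood adjusted p of 0.804 to 1. SNAPC5, on the opposite strand, overlaps MAP2K1 over 2178 bases and had 32.4% of its mean count.

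MAP2K2 had the highest level per length of the 8 genes. Under Vehicle its lowest, median and highest values were 111, 154 and 175 CPM. The tumours on RMC-7977 had 188, 182, 133 and 186 CPM, those on trametinib 142, 133, 163 and 76.8 CPM, and those on cobimetinib 225, 197, 121 and 173 CPM. Again 3 of the 4 RMC-7977 tumours were above all Vehicle tumours, and replicate 3 was inside their range. The log2 fold changes were 0.19 ± 0.21 (SE) with RMC-7977, −0.082 ± 0.21 with RMC-4550, −0.24 ± 0.21 with trametinib and 0.24 ± 0.21 with cobimetinib, with edgeR quasi-likelihood adjusted p of 0.878, 0.986, 0.540 and 1. The 2 MEK inhibitors were also compared directly. For MAP2K2 the log2 difference, trametinib minus cobimetinib, was −0.48 ± 0.23 (SE, 95% interval −0.96 to 0.0035, adjusted p = 0.301), and with the GC correction this was 0.057 ± 0.14.

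MAPK3, which encodes ERK1, was the only member whose RMC-7977 tumours did not overlap Vehicle. The Vehicle tumours had 46.3, 54.7, 57.3, 47.9, 45.6 and 44.2 CPM, a mean of 49.3 ± 5.36 (SD, n = 6). The tumours on RMC-7977 had 71.4, 87.8, 58.3 and 89.9 CPM, a mean of 76.9 ± 14.9 (SD, n = 4). Replicate 3, one of the 4 libraries apart, was the lowest and stood just above the highest Vehicle tumour. The log2 fold change was 0.64 ± 0.20 (SE, 95% interval 0.22 to 1.06), a 1.56-fold difference, with an adjusted p of 0.162 by edgeR's quasi-likelihood test.

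The call on MAPK3 under RMC-7977 depended on the fit. DESeq2 called it (0.62 ± 0.19, adjusted p = 0.0439), with 3.44% of genes called. edgeR called it without Trametinib replicate 4 (0.63 ± 0.16, adjusted p = 0.0410, 3.01% of genes called). It was also called without the 2 libraries with few low counts, Trametinib replicate 4 and RMC-7977 replicate 3 (0.74 ± 0.17, adjusted p = 0.0227, 2.07% of genes called). Without the 4 libraries apart the value was 0.72 ± 0.15 (adjusted p = 0.00783, 6.38% of genes called), and with the GC correction added 0.83 ± 0.13 (adjusted p = 0.000469, 7.8% of genes called). Leaving out 1 tumour at a time gave 0.54 to 0.75, with adjusted p from 0.0410 to 0.427. The GC correction on all tumours gave 0.67 ± 0.18 (adjusted p = 0.0647). The blocked fit, without Vehicle replicates 5 to 7, gave 0.61 ± 0.27 (adjusted p = 1), and 0.52 ± 0.20 (adjusted p = 0.643) with the GC correction as well. On that corrected scale Vehicle replicate 1 stood at 6.24 log2 CPM, inside the RMC-7977 range of 6.02 to 6.31, while the other 5 Vehicle tumours were at 5.17 to 5.51.

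**Figure D3:**
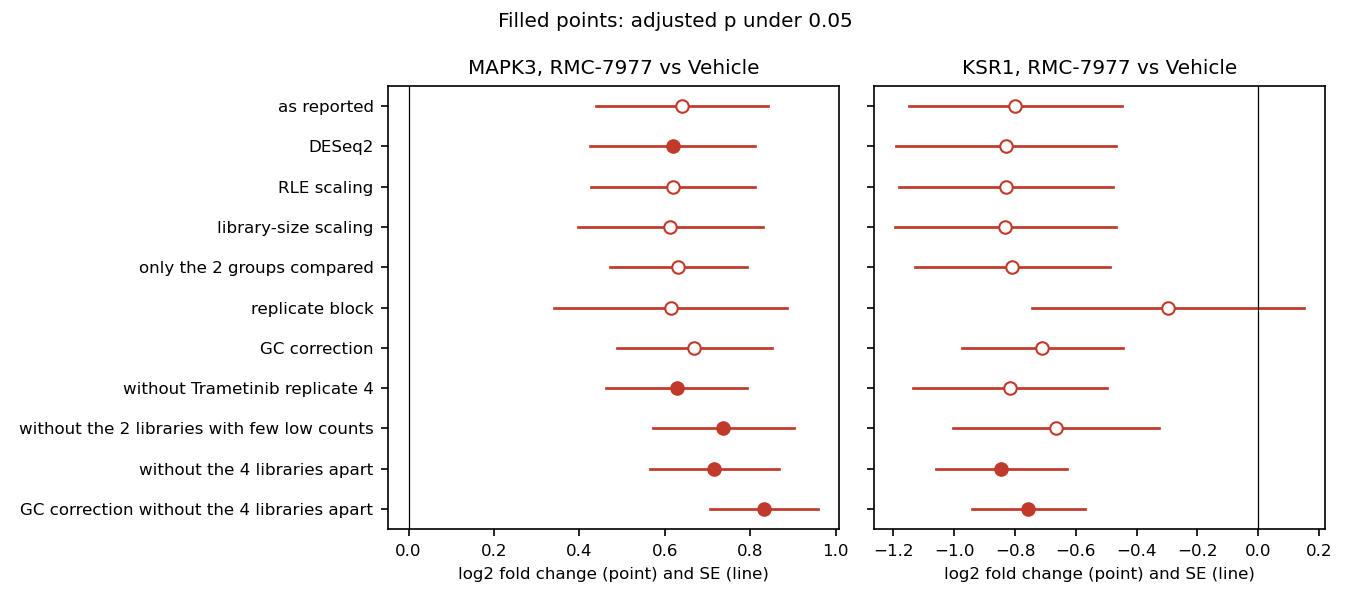
Log2 fold change (horizontal axis, point) and its SE (line) of MAPK3 and KSR1 for RMC-7977 against Vehicle under several ways of fitting, filled where the adjusted p was under 0.05. MAPK3 runs from 0.61 to 0.83 and KSR1 from −0.84 to −0.30 over the fits drawn, which do not include GC correction with block or most fits without 1 tumour.

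Mean MAPK3 levels under the other drugs were below that under RMC-7977. The tumours on cobimetinib had 64.9, 66.0, 52.6 and 65.1 CPM, with 3 of 4 above all Vehicle tumours and a log2 fold change of 0.33 ± 0.20 (SE, edgeR quasi-likelihood adjusted p = 1). The tumours on RMC-4550 had 38.1, 58.4, 60.5 and 37.7 CPM, and those on trametinib 50.3, 47.0, 60.5 and 25.4 CPM, with replicate 4 the lowest of all 22. Both of these groups spread to either side of the Vehicle range, with log2 fold changes of −0.019 ± 0.20 and −0.10 ± 0.20. For trametinib the sign turned with the GC correction (0.26 ± 0.18, adjusted p = 0.416), and without the 4 libraries apart as well it was called (0.54 ± 0.13, adjusted p = 0.0273, 3.47% of genes called).

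MAPK3 lies on the minus strand, and the 250 bases before its RefSeq start are at chr16:30123221-30123470 of GRCh38.p14. This window is 80.4% G and C and holds 6 matches to the GC box, marked in capitals and read on both strands, and no ETS core.
MAPK3: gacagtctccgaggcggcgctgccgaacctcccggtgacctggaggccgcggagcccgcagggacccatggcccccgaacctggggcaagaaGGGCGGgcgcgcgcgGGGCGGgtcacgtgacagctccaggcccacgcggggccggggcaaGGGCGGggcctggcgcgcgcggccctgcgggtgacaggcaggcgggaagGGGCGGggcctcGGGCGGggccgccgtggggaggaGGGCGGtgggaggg
Of the 8 members' windows, only that of SHOC2 held a match to the ETS core.

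RPS6KA1, the kinase RSK1 that ERK phosphorylates, did not pass the test under any drug. Under Vehicle its lowest, median and highest values were 57.0, 60.1 and 72.3 CPM. The tumours on RMC-4550 had 40.4, 57.9, 60.8 and 45.9 CPM, of which 2 of 4 were below all Vehicle tumours. The log2 fold changes were −0.27 ± 0.16 (SE) under RMC-4550, −0.091 ± 0.16 under RMC-7977, −0.080 ± 0.16 under trametinib and 0.0044 ± 0.16 under cobimetinib, with edgeR quasi-likelihood adjusted p of 0.986, 0.940, 0.801 and 1.

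The drugs were also compared directly in 6 pairs, and none of the 8 genes was called by edgeR in any of them. DESeq2 called 1 (MAPK3) for RMC-7977 against trametinib, where it called 4.29% of all genes. It called 0 members in the other 5 pairs, where its shares of all genes were 0.667% to 1.99%. The share of all genes called by edgeR was 0.0906% for RMC-7977 against RMC-4550, 0.408% against trametinib and 0.278% against cobimetinib. It was 0% for RMC-4550 against trametinib, 0.0283% against cobimetinib, and 0% for trametinib against cobimetinib. MAPK3 was 0.66 ± 0.22 (SE, 95% interval 0.19 to 1.12) higher in log2 under RMC-7977 than under RMC-4550, with an edgeR quasi-likelihood adjusted p of 0.357. Against trametinib the difference was 0.74 ± 0.22 (95% interval 0.28 to 1.21, adjusted p = 0.104). These were the only 2 member values with an unadjusted p under 0.05 in the 6 pairs, against 7.39% and 18.2% of all genes. In both pairs 3 of the 4 RMC-7977 tumours were above all 4 tumours of the other drug. Against trametinib, MAPK3 was called by DESeq2 (0.73 ± 0.21, adjusted p = 0.0301), without Trametinib replicate 3 (0.88 ± 0.23, adjusted p = 0.0311, 7.07% of genes called) and without the 4 libraries apart (0.66 ± 0.17, adjusted p = 0.0316, 5.3% of genes called). It was not called with the GC correction (0.41 ± 0.20, adjusted p = 0.217), with the block as well (0.44 ± 0.18, adjusted p = 0.289), or with the GC correction and without the 4 libraries apart (0.29 ± 0.14, adjusted p = 0.253). Against cobimetinib it was 0.31 ± 0.22 higher (95% interval −0.16 to 0.77, adjusted p = 0.894), and 0.51 ± 0.20 with the GC correction (adjusted p = 0.386). With the GC correction and without the 4 libraries apart MAPK3 was called against cobimetinib (0.49 ± 0.13, adjusted p = 0.0370, 5.49% of genes called) and against RMC-4550 (0.62 ± 0.14, adjusted p = 0.0297, 2.05% of genes called).

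KSR1 separated 1 pair of drugs without being called. All 4 RMC-7977 tumours (18.9 to 34.5 CPM) lay below all 4 cobimetinib tumours (36.3 to 60.7 CPM), a separation that 10.5% of genes showed in that pair. The log2 difference was −0.76 ± 0.38 (SE, 95% interval −1.54 to 0.021, edgeR quasi-likelihood adjusted p = 0.684). Trametinib, at 12.2 to 44.1 CPM, overlapped cobimetinib, with −0.72 ± 0.38 (95% interval −1.50 to 0.065, adjusted p = 0.335). RMC-7977 and trametinib differed by −0.044 ± 0.38 for KSR1, with a 95% interval of −0.82 to 0.74.

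Levels of different genes were compared per length, as RPKM, which divides the CPM by the exonic length in kilobases. The mean over the 22 tumours was 29.5 RPKM for MAP2K2, 15.2 for MAPK3, 14.2 for MAP2K1, 13.7 for ARAF, 12.7 for SHOC2, 9.94 for RPS6KA1, 3.29 for KSR1 and 2.01 for BRAF. MAP2K2 was above MAPK3 in 22 of 22 tumours, and RPS6KA1 was above KSR1 in 22 of 22. The neighbours from MAPK3 to RPS6KA1 kept their order in only 12 to 14 of 22 tumours and did not differ beyond their spread. KSR1 was above BRAF in 17 of 22. BRAF's place rests on an exonic length of 23432 bases. Per kilobase of the longest transcript (9578 bases for BRAF) its mean was 4.92, close to 5.54 for KSR1, with MAP2K2 again highest at 52.8.

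**Figure D4:**
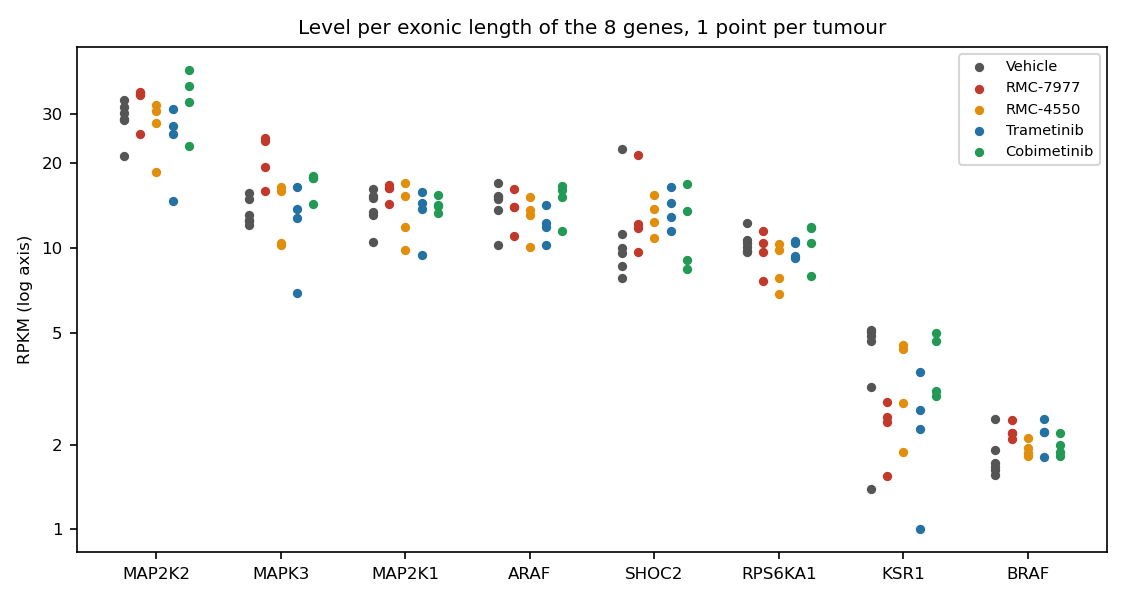
Level per exonic length (vertical axis, RPKM, log scale) of the 8 genes in each tumour, coloured by group and ordered by the mean. MAP2K2 has the highest mean (29.5), a middle group of 5 genes has means from 9.94 to 15.2, and KSR1 and BRAF are lowest at 3.29 and 2.01.

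Shares within pairs of like enzymes were computed in each tumour, as descriptions with no test. MAP2K1 made up 32.6 ± 4.38% (SD, n = 6) of the summed RPKM of MAP2K1 and MAP2K2 under Vehicle, with group means of 30.1% (cobimetinib) to 35.7% (trametinib) under the drugs. ARAF made up 88.4 ± 3.91% of ARAF and BRAF under Vehicle and 84.7% to 88.0% under the drugs. That share rests on the long exonic length of BRAF, and per kilobase of the longest transcript the mean levels over the 22 tumours were 19.3 for ARAF and 4.92 for BRAF.

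Library composition moved with several members. For each library, the rank correlation between gene GC content and deviation from the gene means was computed. In each of the 5 groups the library with the lowest correlation (Vehicle replicate 1 at −0.538, RMC-7977 replicate 3 at −0.424, RMC-4550 replicate 1 at −0.584, Trametinib replicate 1 at −0.484 and Cobimetinib replicate 3 at −0.231) had the highest SHOC2 of its group. Of all genes 7.89% did this. In the same 5 libraries ARAF was the lowest of its group, which held for 2.52% of all genes. KSR1 and MAP2K2 were lowest there in 4 of 5 groups, RPS6KA1 in 3, and MAP2K1 and MAPK3 in 2, while BRAF was highest there in 2. By the transcript annotation SHOC2 is 37.2% G and C and BRAF 40.0%, against 58.9% for ARAF, 60.9% for MAP2K2 and 61.4% for MAPK3. The median correlation was 0.345 for Vehicle, 0.122 for RMC-7977, 0.103 for RMC-4550, −0.258 for trametinib and 0.420 for cobimetinib, so GC and drug cannot be fully told apart.

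**Figure D5:**
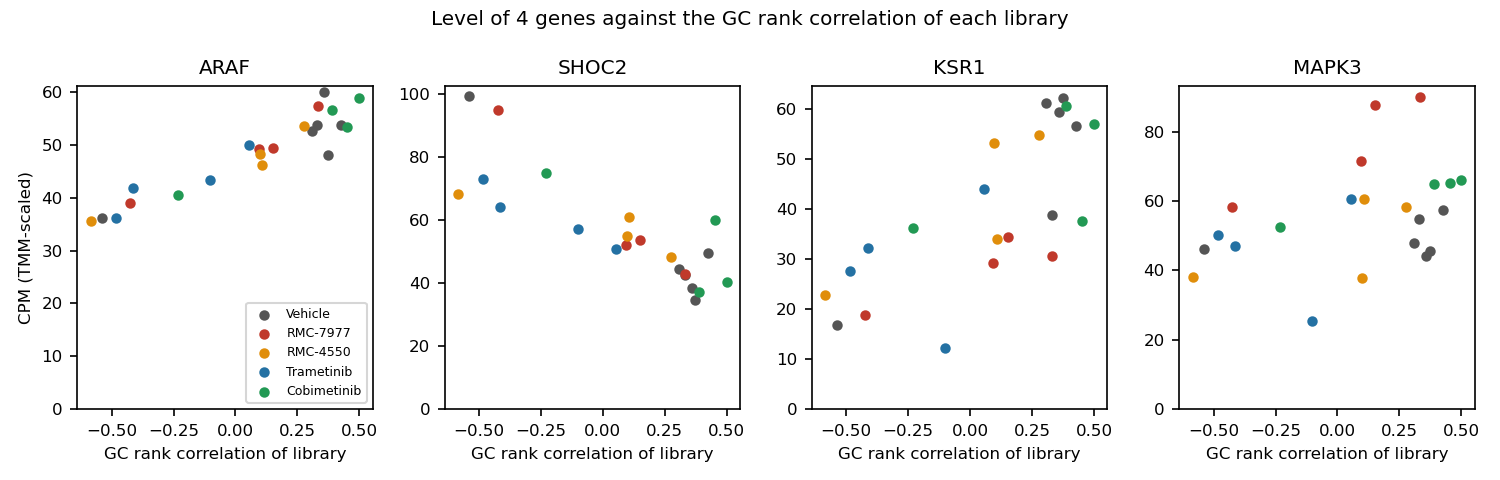
CPM (vertical axis, TMM-scaled) of ARAF, SHOC2, KSR1 and MAPK3 against the GC rank correlation of each library (horizontal axis), 1 point per tumour. ARAF is lowest (35.5 to 40.5 CPM) and SHOC2 highest (68.3 to 99.2 CPM) in the library with the lowest correlation of each group. MAPK3 was 58.3 to 89.9 CPM in the RMC-7977 tumours, and the part of GC composition in this was not tested.

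A correction of each library for GC content, by a smooth offset, narrowed the spread of 7 of 8 members. The offset was fitted to these same counts, so a narrower spread can follow from the correction itself. The share of all genes that narrowed is not given here. Over the 22 tumours the SD of log2 CPM went from 0.411 to 0.246 for SHOC2, from 0.353 to 0.184 for MAP2K2, from 0.236 to 0.158 for ARAF and from 0.659 to 0.493 for KSR1. It moved less for MAPK3 (0.406 to 0.356) and hardly for RPS6KA1 (0.216 to 0.224). After correction none of the 8 genes was called by edgeR in any of the 10 comparisons, where 0% to 1.63% of all genes were called. Against Vehicle, 2 members had an unadjusted p under 0.05 for RMC-7977 and 0 for the other drugs. The shares of all genes at that threshold after correction are not given here. Before correction they were 10.3% for RMC-7977, 4.24% for RMC-4550, 18.8% for trametinib and 3.3% for cobimetinib. For trametinib against Vehicle the values of ARAF, MAP2K2, MAPK3 and RPS6KA1 changed sign, to 0.14 ± 0.12, 0.16 ± 0.13, 0.26 ± 0.18 and 0.21 ± 0.14 (SE). None of these was called before or after. For ARAF the corrected trametinib tumours were at 5.44, 5.58, 5.57 and 6.09 log2 CPM, the last in replicate 4, against 5.30 to 5.77 under Vehicle. Replicate 4 was also the highest trametinib tumour for RPS6KA1 (6.34), but the lowest for MAP2K2 (7.02) and MAPK3 (5.46).

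Other genes of the pathway were counted from lists of 67 genes, of which 63 had enough counts to be tested, and 0 of 63 passed the test under each drug. At an unadjusted p under 0.05 there were 10 for RMC-7977, 3 for RMC-4550, 11 for trametinib and 1 for cobimetinib. The shares of all genes tested at that threshold were 10.3%, 4.24%, 18.8% and 3.3%. DESeq2 called 3 (1 higher, 2 lower) under RMC-7977, 3 (1 higher, 2 lower) under trametinib and 0 under the other two, beside 3.44% and 1.96% of all genes under the first pair of drugs. Without the 4 libraries apart edgeR called 5 under RMC-7977 (3 higher, 2 lower), where 6.38% of all genes were called, 17 under trametinib (10 higher, 7 lower), where 15.1% were, and 0 under the other two. Among 7 tested paralogues and RAF activators, MAP3K8, a kinase that can phosphorylate MEK without RAF, had a log2 fold change of 0.52 ± 0.15 (SE) under RMC-4550 (58.2 ± 7.28 against 40.6 ± 8.25 CPM, edgeR quasi-likelihood adjusted p = 0.671) and 0.35 ± 0.15 under RMC-7977 (adjusted p = 0.391). MRAS, the RAS-related partner of SHOC2, had 0.44 ± 0.20 under RMC-7977 (adjusted p = 0.434). KSR2, the paralogue of KSR1, was not tested, and its mean was 0.00323 RPKM under Vehicle.

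Among 30 tested scaffolds and regulators, YWHAH, an adaptor that binds phosphorylated RAF, had 0.50 ± 0.15 (SE) under RMC-7977 (188 against 133 CPM, edgeR quasi-likelihood adjusted p = 0.119). LZTR1, an adaptor for the degradation of RAS proteins, had −1.07 ± 0.29 under trametinib (10.0 against 21.2 CPM, adjusted p = 0.0947). CDC37, a cochaperone of kinases including RAF, had −0.52 ± 0.20 there (adjusted p = 0.181). Among 11 ERK substrates, RPS6KA5 (the kinase MSK1) had 0.68 ± 0.18 under trametinib (42.6 against 26.6 CPM, adjusted p = 0.0918), 0.55 ± 0.18 under RMC-4550, 0.49 ± 0.18 under RMC-7977 and 0.061 ± 0.18 under cobimetinib. DAPK1, a kinase linked to cell death, averaged 0.0385 CPM under RMC-7977 against 0.634 CPM under Vehicle, too few counts for a fold change (adjusted p = 0.0514). Under trametinib DAPK1 averaged 2.09 ± 2.25 CPM (SD, n = 4), with an edgeR adjusted p of 0.156. Among 15 tested genes of the other MAPK modules, MAPK12 and MAPK11, both p38 kinases, had −1.13 ± 0.37 and −1.31 ± 0.54 under trametinib (adjusted p = 0.131 and 0.210). MAPK15 had −1.13 ± 0.51 under RMC-7977 (75.1 against 165 CPM, adjusted p = 0.434). The drug comparisons share the Vehicle tumours, so like values under different drugs are not independent.

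The members differed in which genes their pattern was most like. Across the 22 tumours and 11042 protein-coding genes, the highest Pearson r of log2 CPM was 0.865 for BRAF with FGD4, 0.950 for KSR1 with ABCC3 and 0.953 for SHOC2 with MOB1A. It was 0.921 for MAP2K1 with GSK3B, 0.954 for MAP2K2 with IDH3G, 0.933 for MAPK3 with LSS and 0.856 for RPS6KA1 with FXR2. The next genes were HSDL1, SBNO2, VPS26A, KREMEN1, REEP4, KIF1B and RBM42, in the same order of members. NOTCH3 was among the genes most like ARAF. These values are descriptions: the points share libraries and their GC composition. NOTCH3 (63.1% G and C) is GC-rich like ARAF and MOB1A (37.3%) GC-poor like SHOC2, but GSK3B (42.1%) and KIF1B (47.1%) have lower GC content than MAP2K1 (50.4%) and MAPK3 (61.4%). Among the members themselves the most negative r was −0.848 for ARAF with SHOC2, and the most positive was 0.815 for MAP2K2 with MAPK3. The latter was 0.709 without Trametinib replicate 4, which had the lowest value of all 22 tumours for KSR1, MAP2K1, MAP2K2 and MAPK3, as it had for 40.5% of all genes tested.

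Reads of close copies were few. Named pseudogenes of ARAF, BRAF, KSR1 and MAP2K1 had at most 0.837% of their gene's mean count (MAP2K1P1). Reads that map to several places may have been treated in ways not given in the sources used here.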

How the data were processed

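Total RNA of 22 tumours was sequenced, in libraries made strand-specific with dUTP. The authors deposited raw read counts per gene. The submitters' processing notes name edgeR (3.22.5), DESeq2 (1.20.0), featureCounts (1.5.0-p3), HISAT2 (2.0.5) and fastp, and the build hg38. How strand and multi-mapping reads were handled is not given in the sources used here.

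The low-count filter of edgeR (4.0.16, in R 4.3.3), with a minimum count of 10, kept 17652 genes holding 99.718% of counts. A robust quasi-likelihood model with TMM scaling and 1 mean per group was fitted to all 22 tumours. The 10 pairs of groups were tested by 2-sided F-tests, with p-values adjusted by Benjamini-Hochberg over all genes tested. Log2 CPM used a prior count of 2. GC content came from GENCODE 29 for 58676 genes, and the positions of all 58735 matched it. Promoter windows came from RefSeq (GRCh38.p14) and matched 8 of 8 members. The pipeline was tested on simulated counts.

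The named genes were the 8 members, for each pathway list and drug up to 3 genes with the smallest p against Vehicle (some not printed), DUSP6, ETV4, ETV5 and SPRY4, for each member the 2 genes with the highest r, and overlapping genes or pseudogenes. Some of these genes are not reported here. The members, lists, tests and libraries left out were chosen with earlier results of these data known. Alternatives were DESeq2 (1.42.0), other scaling and filters, a fit of only 2 groups, a block for the replicate number, a GC correction, and leaving out tumours. GC correction without the 4 libraries apart was added after seeing the data.

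Same-numbered tumours deviated together, with every correlation over 0.1, in 2 comparisons with Vehicle: that of RMC-4550 (0.170 to 0.711) and that of trametinib (0.136 to 0.202). For RMC-7977 against Vehicle the correlations were −0.230 to 0.031, and for cobimetinib −0.257 to 0.125. The replicate numbers were used to pair tumours in the blocked fits only, although no label explains them. The main fit had 1 mean per group and no pairing.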

Additional observations from a re-analysis of the deposited data

Results flagged for a closer look

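Single tumours were set against the rest of their group for the 8 genes in the 5 groups, 40 groups of values in all. In 3 of them the highest or lowest tumour stood far from the others, where chance gives about 1 in 20. SHOC2 in Vehicle replicate 1 was 99.2 CPM, against 34.6 to 49.5 CPM in the other 5 Vehicle tumours. MAP2K2 in RMC-7977 replicate 3 was 133 CPM, against 182 to 188 CPM in the other 3. MAPK3 in Cobimetinib replicate 3 was 52.6 CPM, against 64.9 to 66.0 CPM in the other 3. Each of these tumours was also the library with the lowest GC rank correlation of its group, at −0.538, −0.424 and −0.231. After GC correction SHOC2 in Vehicle replicate 1 was still the highest of its group (6.17 log2 CPM, the others 5.31 to 5.86). MAP2K2 in RMC-7977 replicate 3 then stood at 7.44 (the others 7.25 to 7.41) and MAPK3 in Cobimetinib replicate 3 at 5.74 (the others 5.63 to 5.72), each the highest of its group in place of the lowest.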

How the results depend on the processing

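The count of members called was 0 in all 10 comparisons. It stayed 0 for RMC-4550 and for cobimetinib against Vehicle, RMC-4550 against trametinib and against cobimetinib, and trametinib against cobimetinib under every alternative. For RMC-7977 against Vehicle it was 1 with DESeq2 (3.44% of all genes), 1 without the 2 libraries with few low counts, 3 without the 4 libraries apart (BRAF, KSR1 and MAPK3, 6.38%), 2 with GC correction added to that (KSR1 and MAPK3, 7.8%), and 0 to 1 leaving out 1 tumour. For trametinib against Vehicle it was 3 without the 4 libraries apart (BRAF, KSR1 and SHOC2, 15.1%) and 1 with GC correction added (MAPK3, where 3.47% of all genes were called). For RMC-7977 against trametinib it was 1 with DESeq2 (4.29% of all genes), 1 without the 4 libraries apart (5.3%) and 0 to 1 leaving out 1 tumour. With GC correction and without the 4 libraries apart it was 1 for RMC-7977 against RMC-4550 (2.05% of all genes) and 1 against cobimetinib (5.49%), MAPK3 in both. The causes were not tested.

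With the replicate number as a block the count of members called was 0 in all 10 comparisons, and 0 with GC correction and the block. The main fit also called 0, and the blocked fits called at most 0.184% of all genes, or 0.44% with GC correction. These counts of 0 therefore cannot show what the pairing does. All genes called against Vehicle fell from 132 to 5 for RMC-7977 and from 5 to 0 for RMC-4550 in the blocked fit.

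Of the member values, 51 turned sign by more than their SE, all of them in comparisons where the member was not called in the main result, and 1 of them was called after turning (MAPK3 under trametinib, with GC correction and without the 4 libraries apart). Smaller turns of uncalled values were counted as unchanged. SHOC2 for RMC-7977 against Vehicle was −0.070 with GC correction and block, −0.063 without the 2 libraries, and −0.051 to 0.54 leaving out 1 tumour. Without the 2 libraries SHOC2 was −0.23 against RMC-4550 and −0.11 against cobimetinib, and −0.10 against cobimetinib without the 4 libraries apart. With the block KSR1 was 0.22 for RMC-4550 and 0.49 for cobimetinib against Vehicle. With GC correction and block it was 0.26 and 0.37, BRAF −0.12 and SHOC2 −0.18 for RMC-4550, and RPS6KA1 −0.24 for cobimetinib.

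For trametinib against Vehicle, GC correction gave ARAF 0.14, MAP2K2 0.16, MAPK3 0.26 and RPS6KA1 0.21. With the block as well, ARAF was 0.061, SHOC2 −0.039 and MAP2K2 0.077. With GC correction and without the 4 libraries apart, ARAF was 0.030, MAP2K1 0.12, MAP2K2 0.32, MAPK3 0.54 and RPS6KA1 0.23. That setting gave RPS6KA1 0.077 for RMC-7977, and MAP2K2 0.14 and MAPK3 0.21 for RMC-4550, against Vehicle.

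Between drugs, ARAF with GC correction was −0.13 for RMC-7977 and −0.13 for RMC-4550 against trametinib, 0.058 for RMC-4550 and 0.19 for trametinib against cobimetinib. With the block as well these were −0.12, −0.12, 0.056 and 0.18. Against cobimetinib, with GC correction and without the 4 libraries apart, they were 0.0085 for RMC-4550 and 0.033 for trametinib. MAP2K2 against trametinib was −0.0049 for RMC-7977 and −0.18 for RMC-4550 with GC correction and without the 4 libraries apart, and −0.081 for RMC-4550 with GC correction alone. MAPK3 for RMC-4550 against trametinib was −0.32 in that first setting. For trametinib against cobimetinib, GC correction alone, with block, and without the 4 libraries apart gave MAP2K2 0.057, 0.054 and 0.14, MAPK3 0.096, 0.073 and 0.19, and RPS6KA1 0.30, 0.29 and 0.20.

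With 4 to 6 tumours per group the intervals were wide (−1.53 to −0.074 for KSR1 under RMC-7977), so modest changes could not be detected for every member. Counting error is small beside this, with 76 to 3248 counts per member and tumour, and covers counting only.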
